A study of Bos taurus with 12 samples.

Results

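The comparison described here is that of receptive with non-receptive bovine endometrium on day 3 of the estrous cycle, before any embryo was transferred. It rests on 6 of the 12 RNA pools of the series, the 3 pools labelled as receptive and the 3 labelled as non-receptive endometrium of day 3, and each pool was hybridised to 1 Affymetrix bovine expression array. All 12 pools came from Simmental heifers, and receptivity was assigned from whether a pregnancy followed the transfer of an embryo produced in vivo. The other 6 pools, 3 of each receptivity state taken on day 7, are used only to set the day 3 values beside a later stage. The labels give no age, no number of heifers per pool and no treatment. They do not say that the pools of a group came from separate animals, so p-values measure the spread between pools, which may in part be technical.

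The endometrium is the lining of the uterus, made of a luminal and glandular epithelium over a stroma with vessels and immune cells. On day 3 of the bovine cycle ovulation has just passed and the corpus luteum is only beginning to secrete progesterone, while by day 7 progesterone is rising and the glands release the secretions, rich in proteins, lipids and sugars, that feed the embryo before it attaches. An endometrium is called receptive when it can support an embryo to pregnancy.

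The 6 arrays were alike in their general measures. Their median log2 signals lay between 6.68 and 6.76, and between 257 and 395 of the 24016 tested probe sets were at the floor of 0 on an array. Across probe sets, pools of different receptivity were correlated as closely as pools of the same state, with mean Pearson coefficients of 0.963 over 9 pairs between the groups, and of 0.964 over 3 pairs within each of them. Markers of simple epithelium were measured for 17 genes, none of them at 0, and their mean log2 signal lay between 10.09 and 10.30 in non-receptive and between 10.13 and 10.29 in receptive pools. Non-receptive pool 3 stood apart in its stroma. The mean signal of 30 extracellular matrix genes was 7.12 in this pool, against 8.02 to 8.83 in the other 5. Array control probe sets at the 3' and 5' ends of the actin transcript, whose gap widens with shorter RNA or cDNA, also differed. The gap was 0.49, 0.48 and 0.93 log2 units in non-receptive pools 1 to 3 and 3.11, 1.05 and 1.80 in receptive pools 1 to 3 (exact permutation test, two-sided, p = 0.1, the smallest that 3 pools against 3 allow). The gaps of the EF1a and GST controls did not overlap between the groups either, the former lower and the latter higher in receptive pools (exact permutation p = 0.1 each), whereas those of GAPDH overlapped (exact permutation p = 0.8). Those of cyclophilin and eIF4E overlapped too, with lower means in receptive pools (0.617 against 0.813 and 3.313 against 3.543, exact permutation p = 0.3 and 0.2). The controls thus did not share a direction. Non-receptive pool 3 and receptive pools 1 and 2 recur below where a value rests on them.

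**Figure D1:**
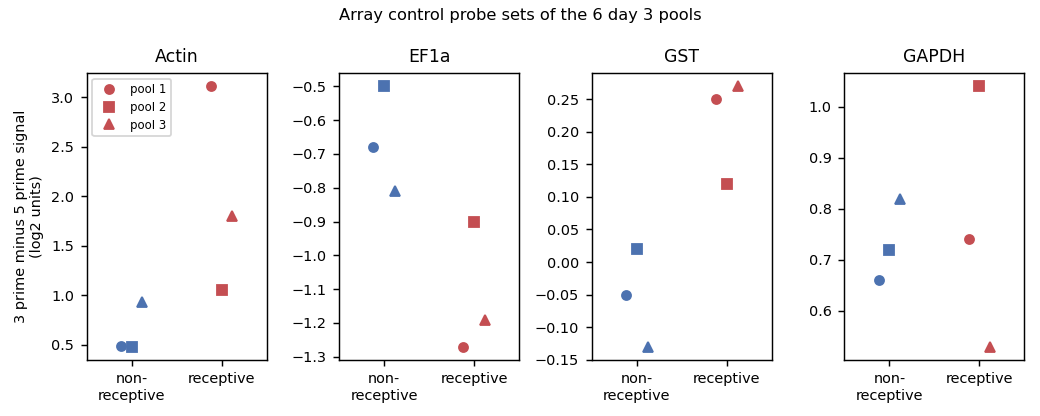
Difference between the 3' and the 5' signal (y axis, log2 units, a separate scale in each panel) of 4 array controls in each of the 6 day 3 pools (points, the marker giving the pool number) by receptivity (x axis). The actin gap was at least 1.05 in receptive pools and at most 0.93 in non-receptive pools, and receptive pool 2 was the receptive pool closest to the non-receptive ones.

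Few transcripts could be called different with 3 pools a group. With limma, 3 of 24016 probe sets passed at a Benjamini-Hochberg adjusted p under 0.05 (0.0125%), 1 more abundant and 2 less abundant in receptive pools, and none of the 3 had a mean log2 signal above 5. The only one with a gene name was that of FOXP3, the transcription factor of regulatory T cells, which was less abundant in receptive pools. The other 2 have no gene symbol in the platform annotation. The higher one had 3.44, 4.20 and 3.12 in receptive pools 1 to 3 and was listed at 0 in each non-receptive pool (adjusted p = 0.00763). The lower one had 3.33, 2.63 and 3.99 in non-receptive pools 1 to 3 and was listed at 0 in each receptive pool (adjusted p = 0.0493). Both calls thus rest on values at the floor. With 1 day 3 pool left out in turn, the number that passed was 0 without receptive pool 1, 5 without receptive pool 2 and 2 or 3 without each of the others. When the 6 day 3 pools were fitted without those of day 7, 4 probe sets passed, of which 0 were among these 3.

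Beneath the adjusted threshold, differences went both ways in similar numbers. At an unadjusted p under 0.05, 621 probe sets had a higher (2.59%) and 643 a lower signal (2.68%) in receptive pools. The pools of both states did not overlap for 1106 probe sets that were higher (4.61%) and 1498 that were lower (6.24%) in receptive endometrium. An unadjusted p under 0.01 was reached by 219 probe sets (0.912%), and 104 of these had a mean signal above 5. Among all 17765 probe sets with a mean above 5, whatever their p, the median size of the difference was 0.123 log2 units. The median SD within the groups was 0.18 for them, against 0.323 at an SD of 0.471 for all dimmer ones. Of the 17765 brighter probe sets, 165 had a difference of more than 1 log2 unit.

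**Figure D2:**
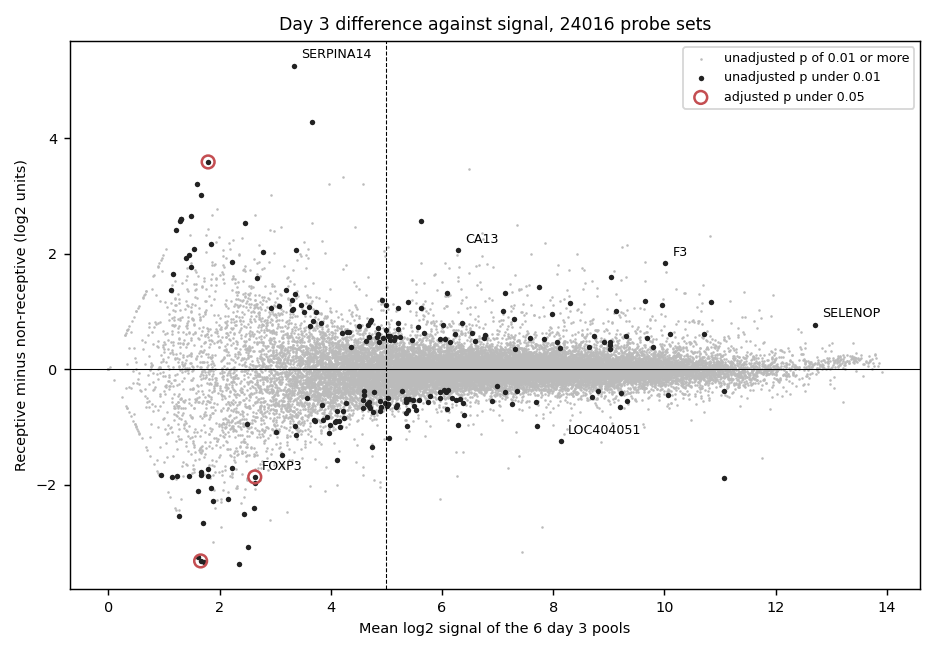
Receptive minus non-receptive signal on day 3 (y axis, log2 units) against the mean of the 6 pools (x axis, log2 signal) for 24016 probe sets (points), with those of an unadjusted p under 0.01 in black and those that passed the adjusted threshold in red circles. The 3 that passed lay at means of 1.66, 1.79 and 2.63, left of the dashed line at 5, and CA13 (2.06) and F3 (1.84) had the largest differences of the 12 higher genes named among those right of it.

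The brighter genes described next are the 12 higher and the 12 lower with the largest differences among those with a mean above 5, no overlap between the groups and an unadjusted p under 0.01. None passed the adjusted threshold, and since day 3 values chose them, their differences are a description. Carbonic anhydrase 13 (CA13), a cytosolic enzyme that converts carbon dioxide to bicarbonate, had log2 signals of 5.17, 5.35 and 5.26 in non-receptive pools 1 to 3 and of 7.46, 6.44 and 8.05 in receptive pools 1 to 3. All receptive pools were above all non-receptive ones, with receptive pool 2 lowest of the 3, and the difference was 2.06 (SE 0.32, limma adjusted p = 0.306). Its second probe set also had no overlap, with a difference of 1.28 (SE 0.41). Without receptive pool 2 the difference of CA13 was 2.50 and passed (adjusted p = 0.00525).

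Tissue factor (F3), the receptor for factor VIIa that starts blood clotting, had 8.79, 8.77 and 9.73 in non-receptive pools 1 to 3 and 11.04, 10.60 and 11.16 in receptive pools 1 to 3. All receptive pools were above all non-receptive ones, and non-receptive pool 3 lay closest to them. The difference was 1.84 (SE 0.29, adjusted p = 0.306), a 3.57-fold higher signal, and 2.15 without non-receptive pool 3 (adjusted p = 0.0835).

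Among the other 10 higher genes were those of lipid and energy metabolism. PPARGC1A encodes a coactivator that raises mitochondrial and oxidative gene expression, and it had 4.78, 4.63 and 4.99 in non-receptive pools 1 to 3 against 6.09, 5.45 and 6.35 in receptive ones (difference 1.16, SE 0.34), while its 3 other probe sets overlapped, with differences of 0.83, 0.11 and 0.21. MOGAT1, an acyltransferase on the path to triglycerides, had 4.76, 4.39 and 4.89 against 5.80, 5.22 and 6.22 (difference 1.07, SE 0.33). Receptive pool 2 was the lowest receptive pool for both. SELENOP, the secreted carrier of selenium, was bright and had 12.20, 12.24 and 12.50 against 13.15, 12.94 and 13.17 (difference 0.77, SE 0.17, adjusted p = 0.879).

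Another 3 of them belong to the endoplasmic reticulum. SYVN1, the ubiquitin ligase that marks misfolded proteins there for degradation, differed by 1.12 (SE 0.25), FICD, which modifies the chaperone BiP, by 0.77 (SE 0.19), and NCLN, a membrane protein of the same organelle, by 0.58 (SE 0.14). Only the named probe sets of FICD and NCLN had no overlap. Their others differed by -0.22 and 0.38 and by 0.05 and 0.18. MAP1LC3A of the autophagosome (difference 1.17, SE 0.30), the aminopeptidase METAP1, which removes the first methionine of proteins (1.0, SE 0.29), the homeobox factor BARX2 (0.81, SE 0.24) and IRF7, a transcription factor of the interferon response (0.58, SE 0.12), complete the list. Brighter probe sets of IRF7 differed by 0.04 and 0.29. Over the 12 higher genes, adjusted p lay between 0.306 and 0.936.

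**Figure D3:**
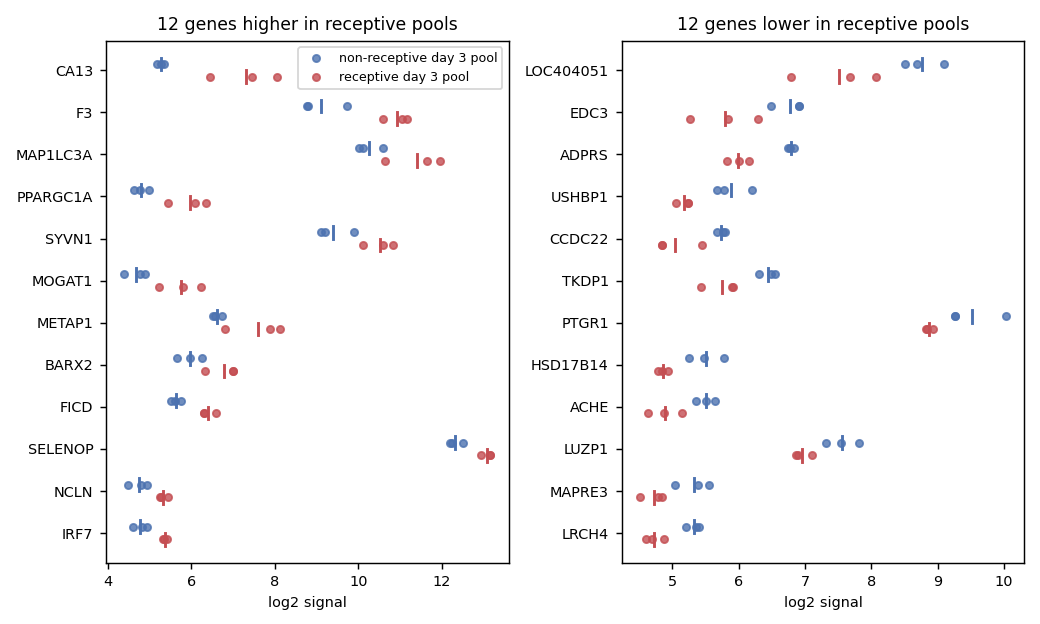
Log2 signal (x axis) of the 12 higher (left) and 12 lower (right) genes in each of the 3 non-receptive (blue) and 3 receptive (red) day 3 pools (points), with the mean of each group (vertical bar). The pools of both groups did not overlap for any of the 24 genes, which was part of how they were chosen, and the differences ran from 0.58 to 2.06 in the left and from -1.25 to -0.60 in the right panel.

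The 12 lower genes had smaller differences. LOC404051, which has a locus number only, had 8.69, 9.10 and 8.50 in non-receptive pools 1 to 3 and 6.79, 8.07 and 7.68 in receptive pools 1 to 3. Receptive pool 1 was the lowest and receptive pool 2 the closest to the non-receptive pools, and the difference was -1.25 (SE 0.32, adjusted p = 0.936), while its other bright probe set differed by -0.03. EDC3, a scaffold of messenger RNA decapping, had the same order of pools, with 6.91, 6.91 and 6.49 against 5.27, 6.29 and 5.84 (difference -0.97, SE 0.27). ADPRS, a hydrolase that removes ADP-ribose, had the smallest adjusted p of the 12, with 6.83, 6.75 and 6.78 against 6.16, 6.01 and 5.82 (difference -0.79, SE 0.15, adjusted p = 0.525), but brighter probe sets of this gene overlapped, with differences of -0.05 (SE 0.11) and 0.00 (SE 0.10).

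A pair of the lower genes act on hormones and prostaglandins. HSD17B14, a 17-beta-hydroxysteroid dehydrogenase that can oxidise estradiol, had 5.25, 5.78 and 5.48 in non-receptive pools 1 to 3 and 4.78, 4.93 and 4.85 in receptive ones (difference -0.65, SE 0.19). PTGR1, a reductase that inactivates prostaglandins and leukotriene B4, had 9.26, 9.26 and 10.03 against 8.93, 8.84 and 8.83 (difference -0.65, SE 0.20), where non-receptive pool 3 was far above the rest. Its second probe set also had no overlap (difference -0.47, SE 0.22). TKDP1, a Kunitz domain protein known from the ruminant trophoblast, had 6.54, 6.31 and 6.48 against 5.90, 5.92 and 5.43 (difference -0.69, SE 0.20), and its other probe set had a difference of 0.20.

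The remaining lower genes were ACHE, the acetylcholinesterase (-0.61, SE 0.17), MAPRE3, which binds the ends of growing microtubules (-0.61, SE 0.18), LUZP1, an actin-binding protein of the primary cilium (-0.61, SE 0.17), CCDC22, a subunit of the endosomal COMMD complex (-0.70, SE 0.17), USHBP1 (-0.71, SE 0.20) and LRCH4 (-0.60, SE 0.14). Probe sets of ACHE and LUZP1 other than those named had positive differences of 0.90, resting on 3 pools at 0, and of 0.09. The 3 other probe sets of LRCH4 differed by -0.33, -0.42 and -0.07.

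The place of receptive pool 2 recurred. Receptive pool 2 was the receptive pool nearest to the non-receptive ones in 10 of the 12 higher and 7 of the 12 lower genes. The same held for 429 of all 857 bright probe sets that were higher without overlap (50.1%) and 498 of the 1047 that were lower (47.6%). Receptive pool 1 was nearest in 21.4% and 21.2%, and receptive pool 3 in 23.1% and 28.4%. In the actin control gap, receptive pool 2 also lay nearest to the non-receptive pools. Whether the other receptive pools followed the order of the gap was not tested. With the actin gap of each array as a covariate, 0 probe sets passed in limma, and the differences of the 12 higher genes lay between 0.28 and 1.62 and those of the 12 lower between -0.93 and -0.27. The part of the actin gap in these differences was not tested further.

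Day 7 gives a second look at the same genes. Of the 12 higher genes 3 had a higher mean in receptive pools on day 7 as well, and of the 12 lower genes 10 had a lower one. Over all 24016 probe sets on day 7, 516 were higher and 880 lower in receptive pools at an unadjusted p under 0.05 in limma. These counts include dim probe sets and those without a gene name. Over the 7885 named genes with a mean above 5, the median day 7 difference was 0.023. CCDC22, PTGR1 and HSD17B14 were also lower in receptive pools on day 7 without overlap, with differences of -0.39, -0.55 and -0.67 against -0.70, -0.65 and -0.65 on day 3, though on neither day did they pass. Of the 17765 probe sets with a mean above 5, 857 were higher and 1047 lower without overlap on day 3. Among the 17765, 189 had no overlap on both days in the same direction and 28 in opposite directions. The labels do not say whether both days share heifers, so the days may not be independent. For 11 of the 12 higher genes the mean of the 6 day 7 pools was above that of the non-receptive day 3 pools, and for 7 all 6 day 7 pools were above all 3 of them. CA13 lay between 7.28 and 8.0 in the 6 day 7 pools, with a mean of 7.65 against 5.26 in the non-receptive and 7.32 in the receptive pools of day 3. F3 lay between 10.53 and 11.41 on day 7, a range that also holds the 3 receptive day 3 pools. IRF7 was the exception, with 4.52 to 4.78 on day 7. As the genes were chosen for low values in the non-receptive pools of day 3, these levels are a description.

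**Figure D4:**
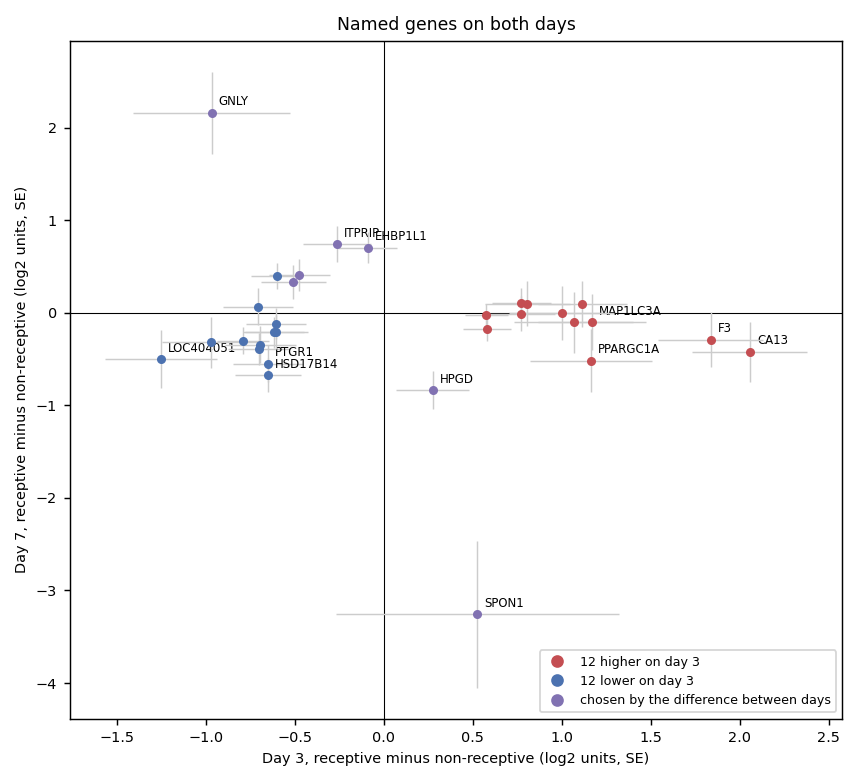
Receptive minus non-receptive signal on day 7 (y axis) against that on day 3 (x axis, both in log2 units, bars giving the SE) for the 12 higher (red) and 12 lower (blue) genes of day 3 and for further genes chosen by the difference between both days (purple). Red points scatter about 0 on day 7, most blue points lie below 0, and GNLY and SPON1 are farthest from the others.

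The difference between the day 3 and the day 7 effect was tested as an interaction. In limma, 0 of 24016 probe sets passed (smallest adjusted p = 0.752), with 813 at an unadjusted p under 0.05 and 149 under 0.01 (0.62%). On day 7 itself 0 passed either (smallest adjusted p = 0.0963, 1396 at an unadjusted p under 0.05). Granulysin (GNLY), a lytic protein of cytotoxic lymphocytes, had the largest negative interaction among genes with a mean of the 12 pools above 5, no pool at 0 and an unadjusted interaction p under 0.01. On day 3 it had 6.91, 7.07 and 6.87 in non-receptive pools 1 to 3 and 5.59, 6.34 and 6.02 in receptive ones, and on day 7 it had 3.82, 2.39 and 3.73 against 6.26, 5.48 and 4.69. All receptive pools were thus below the non-receptive ones on day 3 and above them on day 7 (interaction -3.13, SE 0.63, adjusted p = 0.997). By the same criteria the largest positive interaction, 3.78 (SE 1.12), was that of the matrix protein spondin 1 (SPON1), whose pools overlapped on day 3 and differed by -3.26 on day 7. A brighter probe set of SPON1 had an interaction of 1.25 (SE 0.87) and a difference of -1.14 on day 7, where its pools overlapped. HPGD, which degrades prostaglandins, had a difference of 0.28 on day 3 and of -0.83 on day 7. The next negative interactions by these criteria were those of ITPRIP (-1.01), GABBR1, a subunit of the GABA B receptor (-0.88), HSPA12B, an endothelial heat shock protein relative (-0.84), and EHBP1L1 (-0.79).

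FOXP3 had log2 signals of 3.08, 3.64 and 3.97 in non-receptive pools 1 to 3 and of 1.93, 1.65 and 1.52 in receptive pools 1 to 3. The groups did not overlap, and the difference was -1.86 (SE 0.21, adjusted p = 0.0493) at a mean of 2.63, low in the range of the array. On day 7 all 6 pools lay between 2.88 and 3.30. The call was kept in 2 of 24 alternatives, with adjusted p between 0.0156 and 0.839. The probe set bears the same cluster number as that of CCDC22, and in the ARS-UCD2.0 annotation the genes are neighbours on chromosome X that overlap at their ends, so the transcript behind the signal is uncertain.

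Other T cell markers did not all follow FOXP3. CTLA4, the inhibitory receptor that regulatory T cells carry, had 5.27, 5.05 and 5.24 in non-receptive and 4.09, 4.23 and 4.60 in receptive pools (difference -0.88, SE 0.29, adjusted p = 0.936), again with no overlap. The defining T cell genes CD3D and CD3E had differences of -0.08 (SE 0.16) and -0.05 (SE 0.16), and CD4 one of 0.02 (SE 0.13). Of 25 markers of T and NK cells 1 passed, FOXP3, and 16 had a lower mean in receptive pools, with a median of -0.08 against -0.01 over all 9155 genes. Without overlap, 4 were lower (16%, against 5.61% of all genes) and 0 higher. GNLY, described above, was also lower without overlap on day 3 (difference -0.97, SE 0.44). In bulk tissue, fewer cells of a type and less RNA per cell cannot be told apart.

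Among the other immune lists no gene passed. B and plasma cell markers had the lowest median of all lists, -0.28 over 10 genes, 8 of which had a lower mean in receptive pools. The B cell antigen MS4A1 had 5.47, 5.26 and 5.25 against 5.02, 4.77 and 4.85 (difference -0.45, SE 0.17). CD79A of the B cell receptor differed by -0.72 (SE 0.30) and POU2AF1, a transcriptional coactivator of B cells, by -0.87 (SE 0.38), both with overlap and both lowest in receptive pool 1. With the actin gap as a covariate the differences of CD79A and POU2AF1 were 0.07 and 0.00. Neutrophil markers (median -0.19, 20 of 24 negative, mean signal 5.77 to 5.81 in non-receptive and 5.52 to 5.70 in receptive pools), genes of mucosal defence and pattern recognition (-0.20, 18 of 24), chemokines (-0.18, 15 of 22) and interferon-stimulated genes (-0.14, 18 of 26) also had medians below that of all genes, 48.8% of which were positive. On day 7 the medians of these 4 lists were between 0.155 and 0.208.

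Values of single immune genes went both ways. BPIFA1, a secreted antimicrobial protein of mucosal surfaces, differed by -0.48 (SE 0.16) and TLR3, the sensor of double-stranded RNA, by -0.69 (SE 0.30). The pools overlapped for both. The chemokine CXCL14 went the other way, with 7.06, 7.09 and 6.46 in non-receptive and 7.37, 7.83 and 8.09 in receptive pools (difference 0.89, SE 0.32). The dendritic cell lectin CD209 differed by -0.30 (SE 0.13) with no overlap. None of these passed (adjusted p = 0.936 each).

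**Figure D5:**
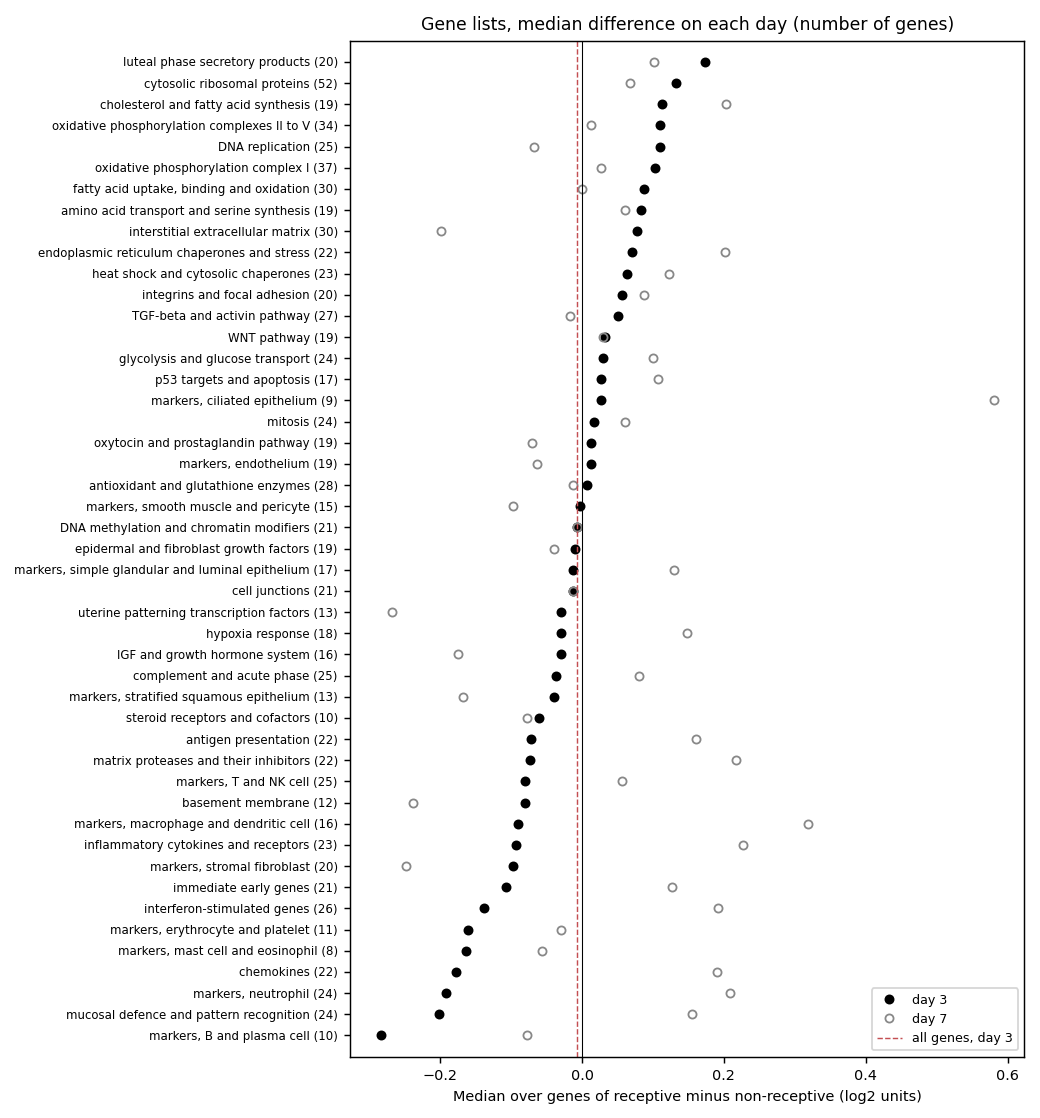
Median over the genes of each list of receptive minus non-receptive signal (x axis, log2 units) on day 3 (filled) and day 7 (open) for 47 lists (y axis, number of measured genes in parentheses), with the day 3 median of all genes as a dashed line. On day 3 the medians ran from -0.28 for B and plasma cell markers to 0.17 for luteal phase secretory products.

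Products of the secretory glands had the highest median, 0.17 over 20 genes, of which 0 passed, 4 were higher at an unadjusted p under 0.05 (20%, against 2.40% of all 9155 genes) and 0 lower. Without receptive pool 2 the median was -0.02. The uterine serpin SERPINA14, the major secreted protein of progesterone-primed ruminant endometrium, had 2.12 in non-receptive pool 1, was listed at 0 in non-receptive pools 2 and 3, and had 5.97, 6.64 and 5.27 in receptive pools 1 to 3. Its second probe set gave 2.67, 0 and 1.87 against 6.0, 6.20 and 5.18. Receptive pools were thus the higher ones in both, but the size rests on values at the floor and the gene did not pass (adjusted p = 0.936 for each). On day 7 the first probe set lay between 6.16 and 11.64.

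Lipoprotein lipase (LPL), which releases fatty acids from triglycerides, had 6.28, 5.10 and 5.44 in non-receptive pools 1 to 3 and 8.23, 5.84 and 9.51 in receptive pools 1 to 3 (difference 2.25, SE 0.84). Receptive pool 2 fell inside the non-receptive range. The fatty acid binding protein FABP3 had 7.14, 7.02 and 7.39 against 10.14, 8.39 and 8.45, with no overlap (difference 1.81, SE 0.70). Aminopeptidase N (ANPEP), of the apical epithelial membrane, had 10.55, 10.88 and 10.83 against 12.87, 10.62 and 12.80 (difference 1.34, SE 0.53), and receptive pool 2 again lay with the non-receptive pools. PPARA, a nuclear receptor that turns on fatty acid oxidation, had 4.24, 4.55 and 4.70 against 5.53, 5.77 and 5.15 (difference 0.99, SE 0.31). SREBF1, the regulator of lipid synthesis, differed by 0.85 (SE 0.32), with receptive pool 2 inside the non-receptive range. Of 30 genes of fatty acid uptake, binding and oxidation, LPL, FABP3 and PPARA were higher at an unadjusted p under 0.05 (10%, against 2.40% of all genes) and 0 passed, and the median of the list was 0.09. LPL and FABP3 also count among the secretory products above, so the shares of both lists are not separate.

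Genes of protein synthesis and respiration had small differences, most of them of one sign. Of 52 cytosolic ribosomal proteins 50 had a higher mean in receptive pools, with a median of 0.13, and for 18 of them (34.6%) the pools did not overlap, where 4.36% of all genes were higher without overlap. RPS18 had 13.25, 13.22 and 13.42 against 13.62, 13.46 and 13.64 (difference 0.28, SE 0.10) and RPL3 differed by 0.32 (SE 0.11), and 0 of the 52 passed. After quantile normalization between the arrays the median of the ribosomal list was 0.01. Subunits of oxidative phosphorylation, with 32 of 37 genes of complex I and 33 of 34 of complexes II to V positive, had medians of 0.10 and 0.11, and of 0.09 and 0.08 after quantile normalization. Receptive pool 2 did not share this. The mean signal of complexes II to V was 11.25 in it, below the 11.28 to 11.37 of the non-receptive pools, and 11.59 and 11.45 in receptive pools 1 and 3, which also had the wider actin gaps. That of complex I was 10.37 in receptive pool 2, inside the non-receptive range of 10.33 to 10.45. The part of the actin gap in this pattern was not tested. In the complexes II to V the pools did not overlap for 3 genes (8.82%, against 4.36% of all genes higher without overlap), among them SDHD, the membrane anchor of succinate dehydrogenase (difference 0.20, SE 0.12), and in complex I NDUFB6 differed by 0.43 (SE 0.19). DNA replication genes (19 of 25 positive, median 0.11) and endoplasmic reticulum chaperones (18 of 22, median 0.07) were placed similarly, the latter with DNAJB9, a co-chaperone of BiP, at 0.63 (SE 0.22).

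Receptors of the reproductive hormones had overlapping pools. The estrogen receptor ESR1 had 4.39, 4.45 and 3.69 against 3.83, 4.44 and 4.39 (difference 0.04, 95% interval -0.55 to 0.63), and the progesterone receptor PGR had 4.90, 5.28 and 3.37 against 4.63, 3.81 and 4.60 (difference -0.17, 95% interval -1.30 to 0.96). Both are measured on dim probe sets. The oxytocin receptor OXTR, through which oxytocin drives prostaglandin release at the end of the cycle, was bright and had 10.89, 10.66 and 11.01 against 10.79, 10.95 and 10.18 (difference -0.21, 95% interval -1.33 to 0.90). Of 10 steroid receptors and cofactors 0 passed and 0 were without overlap. The sign of all 3 differences turned when single pools were left out.

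Among prostaglandin genes, cyclooxygenase 2 (PTGS2), the inducible first enzyme of prostaglandin synthesis, had 6.41, 4.99 and 8.41 in non-receptive pools and 8.37, 11.24 and 6.20 in receptive ones (difference 2.0, SE 1.29). The SD was 1.72 in non-receptive and 2.53 in receptive pools, and the groups overlapped. AKR1C3, a reductase of prostaglandins and steroids, had 3.43, 3.84 and 3.77 against 3.15, 0 and 2.15, low values of which 1 is at the floor. Of 19 measured genes of the oxytocin and prostaglandin pathway 0 passed, and the median was 0.01.

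The insulin-like growth factors were measured on bright probe sets. IGF2, a growth factor of fetal and maternal tissues, had 6.69, 6.93 and 6.40 against 5.97, 6.10 and 6.22 (difference -0.58, SE 0.17), and IGF1 had 7.66, 7.67 and 7.53 against 7.26, 7.52 and 7.06 (difference -0.34, SE 0.16). The pools did not overlap for either, but the other bright probe set of IGF1 overlapped (-0.24, SE 0.16), as did its dim ones (-0.44, SE 0.43, and 0.38, SE 1.18). Of their binding proteins, IGFBP5 differed by -0.73 (SE 0.30), and by 0.05 with the actin gap as a covariate, while IGFBP2 was dim, with 0, 0.97 and 0.76 against 3.41, 3.27 and 2.34. TGFB3, a transforming growth factor, had 8.21, 8.21 and 8.16 against 7.08, 7.77 and 7.79 (difference -0.65, SE 0.23), where receptive pool 1 was lowest. The stromal marker NT5E, an ectonucleotidase that makes adenosine, differed by -0.88 (SE 0.36), and by 0.17 with the actin gap as a covariate. IGF2 and NT5E also had no overlap on day 7, with differences of -0.30 and -0.67 in the same direction. The angiogenic factor VEGFA differed by -0.24 (SE 0.14). None of these genes passed, nor did any of the 16 measured genes of the IGF and growth hormone system.

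Vascular and oxygen-sensing genes were mixed. Of 19 endothelial markers 3 were lower without overlap (15.8%, against 5.61% of all genes) and 1 was higher (5.26%, against 4.36%). LYVE1 of lymphatic endothelium had 4.84, 4.36 and 4.78 against 4.17, 3.50 and 3.80 (difference -0.84, SE 0.25), and on day 7 its difference was -0.80, again without overlap. PLVAP of fenestrated capillaries differed by -0.43 (SE 0.18). Von Willebrand factor (VWF) had 2.21, 2.25 and 2.91 against 3.84, 4.02 and 3.39 (difference 1.29, SE 0.45). EGLN1, the prolyl hydroxylase that senses oxygen, had 10.51, 10.56 and 10.68 against 10.93, 10.87 and 10.84 (difference 0.30, SE 0.09), and its substrate EPAS1 (HIF-2 alpha) had 9.70, 9.86 and 10.73 against 11.05, 11.79 and 10.91 (difference 1.15, SE 0.50). Heme oxygenase HMOX1 differed by 0.94 (SE 0.42) without overlap. Of 18 hypoxia response genes 8 were positive and 0 passed.

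Markers of ciliated and squamous epithelium, smooth muscle and stroma had overlapping ranges in both groups. Those of ciliated epithelium (9 genes) had mean log2 signals of 8.38 to 8.87 in non-receptive and 7.89 to 9.17 in receptive pools, and those of stratified squamous epithelium of the lower tract (13 genes) of 6.40 to 6.80 and 6.45 to 6.84. In the squamous list LY6G6C had 5.34, 5.12 and 7.62 against 8.08, 6.91 and 8.39 (difference 1.77, SE 0.76), and KRT6B had a difference of -0.64 (SE 0.22). Smooth muscle markers (15 genes) lay between 5.92 and 6.48 and between 6.14 and 6.27, and stromal fibroblast markers (20 genes) between 7.74, in pool 3, and 9.16 in non-receptive and between 8.39 and 8.43 in receptive pools. The reference genes ACTB and GAPDH differed by 0.24 (SE 0.14) and 0.05 (SE 0.20).

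The largest differences of dim genes rest on the floor. Plasminogen (PLG), the precursor of the clot-dissolving protease plasmin, had 3.05, 4.49 and 4.56 in non-receptive pools and 0, 0 and 2.01 in receptive ones, while its other probe set overlapped (difference -0.64, SE 0.54). A probe set of HMMR, a hyaluronan receptor of dividing cells, had 2.84, 3.31 and 3.57 in non-receptive pools and was listed at 0 in all receptive ones, but a brighter probe set of the same gene had a difference of 0.14. PHTF1 had 1.80, 3.96 and 1.92 in receptive pools and APOLD1, an endothelial protein, had 1.35, 3.11 and 2.79, and each non-receptive pool was listed at 0 for both. A brighter probe set of APOLD1 differed by 0.23. LOC507016 had 0.94, 2.66 and 0 against 3.54, 3.91 and 3.74. None of these 5 passed, although HMMR did when the 6 day 3 pools were fitted alone.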

How the data were processed

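The authors deposited log2 signals of 24128 probe sets for 12 RNA pools, 1 array each, made from total RNA as biotin-labelled cRNA. Their notes to the repository list the programs GCOS (version 1.1.1), PLIER and Affymetrix Expression Console but not what each did, nor how arrays were scaled to one another. Values were used as deposited, with 0 as a floor. The number of arrays limits the precision.

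The 112 control probe sets were left out, and 24016 were tested with limma 3.58.1 (lmFit, eBayes, R 4.3.3), as 4 group means (receptivity by day) fitted jointly to the 12 pools, two-sided, with Benjamini-Hochberg adjustment over all probe sets. The array's annotation gave names, used where it holds exactly 1 symbol (13292 probe sets, 86 with several, 10638 with none, 9155 genes).

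Named were the 12 higher and 12 lower genes with the largest differences (mean above 5, no pool at 0, no overlap, adjusted p under 0.05, filled at an unadjusted p under 0.01), other genes that passed, up to 6 dim ones, up to 4 genes per list with the smallest p, the 5 largest interactions each way, and ESR1, PGR, OXTR, SERPINA14, IGF1, VEGFA, GAPDH and ACTB. Beyond the rule, CD3D, CD3E and CD4 were added after their values were seen. In lists a gene is represented by its brightest probe set, and 991 of 1374 entries in 47 lists were matched. Members, lists and rules were chosen with earlier results of these data known. No list was tested. The fit was tested on simulated data. Alternatives were other samples, scalings, filters, variance models, covariates and left-out pools.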

Additional observations from a re-analysis of the deposited data

Results flagged for a closer look

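Of the genes named above, the following had no overlap between receptive and non-receptive pools on either day but opposite directions on both, with no pool at 0. CA13, GNLY, ITPRIP and GABBR1 were among those picked by the size of their interaction. The change of effect from one day to the other was tested in limma as an interaction, and none of these genes passed (adjusted p of 0.752 or more). The day 3 minus day 7 difference was 2.48 for CA13, 0.75 for NCLN and 0.54 for EGLN1, all higher in receptive pools on day 3. It was -3.13 for GNLY, -1.01 for ITPRIP, -1.0 for LRCH4 and -0.88 for GABBR1, all lower on day 3. Brighter probe sets of NCLN and LRCH4 overlapped on day 7, and that of GABBR1 on day 3. Over all 24016 probe sets, 53 had no overlap on both days in opposite directions and 234 in the same direction. Whether both days share heifers is not in the labels.

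Among control probe sets, which enter no comparison of genes, the 3' minus 5' gap of actin and GST was larger in receptive pools, while that of EF1a was lower (-1.12 against -0.663). The mean gaps of cyclophilin (0.617 against 0.813) and eIF4E (3.313 against 3.543) were lower in receptive pools too, with overlap. The gap averaged 1.99 in receptive and 0.633 in non-receptive day 3 pools for actin, and 0.213 and -0.053 for GST (exact permutation p = 0.1 for both, the smallest possible). Their part in the gene differences was not tested beyond the fit with the actin gap as a covariate. Groups of 3 pools are too small to test for a single outlying pool.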

How the results depend on the processing

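The number of probe sets that passed on day 3 (3) was small enough to depend on most settings. It was 1 after quantile normalization, after median centring, with a robust variance and with the poly-A spike-in mean as a covariate. It was 0 among probe sets with a mean above 5, among those with no pool at 0, with the floor raised to 3, with an intensity trend and with the actin gap as a covariate. Array weights gave 6, among them CA13 and F3, and the 6 day 3 pools alone gave 4. Leaving out single pools gave 0 (receptive day 3 pool 1) to 5 (receptive day 3 pool 2). On day 7 the number was 1 with array weights and with the poly-A covariate and 2 with the actin gap, and 0 to 2 without single pools, and for the interaction it was 0 to 2. The number at an unadjusted p under 0.01 was 143 with a mean above 5 and 948 with array weights, and 143 (without receptive pool 1) to 604 (without receptive pool 2) with pools left out, non-receptive pool 3 giving 349. The causes were not tested.

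Receptive and non-receptive pools of the same number on day 3 had correlations of -0.04, 0.06 and -0.03 between their deviations from the group means. Day 3 and day 7 pools of the same number were not compared, so a pairing of these was not tested. The mean hybridisation spike-in signal was highest in pool 2 of each group. It was 10.893 and 10.753 in non-receptive and receptive pool 2 of day 3, and 10.877 and 10.645 in those of day 7. A link of pool number to processing was not tested. With the pool number as a replicate block 0 probe sets passed, with all pools and with the 6 day 3 pools alone.

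None of the 24 brighter named genes changed sign in 600 values over 25 alternatives, and 3 values passed. For most alternatives the sign was fixed in advance. The genes were chosen for no overlap on day 3, so leaving out a pool could not turn it. Filters, the intensity trend, the robust variance and the replicate block left the difference itself unchanged. Of 2104 values in all, 2061 kept direction and side of the threshold and 17 turned direction, in 9 genes. With the actin gap as a covariate the differences were -0.011 for ACTB, -0.326 for GAPDH, 0.051 for IGFBP5, 0.171 for NT5E, 0.073 for CD79A and 0.003 for POU2AF1. GAPDH was -0.037 with the poly-A covariate. Without single pools, GAPDH lay between -0.077 and 0.207, OXTR between -0.368 and 0.017, PGR between -0.743 and 0.212 and ESR1 between -0.2 and 0.238. Of 470 list medians 25 moved by more than the spread between pools, in 15 of 47 lists.

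With 3 pools a group and dim signals cut at the floor, small differences and those of dim genes could not be resolved.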
